A study of Rattus norvegicus with 8 samples.

Results

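The cluster of miR-221 and miR-222 is a pair of neighbouring microRNA (miRNA) genes, and its 4 mature products, rno-miR-221-3p, rno-miR-221-5p, rno-miR-222-3p and rno-miR-222-5p (the prefix rno, for rat, is left out below), were taken by name from the 758 rat miRNAs on the array. The tissue was the left medial vestibular nucleus (MVN), a brainstem nucleus that receives the vestibular nerve, of male Sprague–Dawley rats aged 7 weeks. Rats of the UVD (unilateral vestibular deafferentation) group had the left labyrinth destroyed surgically and with ethanol, and rats of the SO (sham operation) group had the same approach, ear canal and middle ear steps included, without opening of the vestibule and without ethanol. The groups were UVD 4 d, UVD 4 h, SO 4 d and SO 4 h after surgery, with 2 arrays each, and by the methods each array held RNA pooled from the dissected MVNs of 3 rats. All 8 arrays thus come from operated animals and no unoperated tissue was compared. Because each array averages 3 rats, the p-values measure the spread between pools.

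An miRNA gene is transcribed into a hairpin that is cut into a 5p and a 3p strand. One of the strands is usually loaded into the silencing complex, where bases 2 to 8 from its 5′ end, the seed, pair with target mRNAs, while the other is mostly degraded. In mammals miR-221 and miR-222 lie close together, are transcribed as a single precursor and share a seed. They are best known for repressing the cell cycle inhibitor p27Kip1 and the receptor KIT, and are prominent in endothelial and vascular smooth muscle cells. In rat PC12 cells both are raised by nerve growth factor, and in the rat sciatic nerve both have been linked to Schwann cell proliferation after injury.

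The mature sequences are given first, because the seed in capitals is what the 3p strands have in common and what the 5p strands lack (RefSeq, assembly GRCr8, 5′ to 3′).
rno-miR-221-3p: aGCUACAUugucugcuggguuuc
rno-miR-222-3p: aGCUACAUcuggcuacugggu
rno-miR-221-5p: aCCUGGCAuacaauguagauuuc
rno-miR-222-5p: gGCUCAGUagccaguguagau
The 3p strands are 23 bases (miR-221) and 21 bases (miR-222) long and are identical over their first 8 bases. After that their longest shared run is 6 bases. Of the 685 array miRNAs with a RefSeq sequence, 0 besides this pair carry the seed GCUACAU, and 0 share a seed with either 5p strand.

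The hairpins show where both strands of each gene sit, with the 5p and then the 3p strand in capitals.
Mir222: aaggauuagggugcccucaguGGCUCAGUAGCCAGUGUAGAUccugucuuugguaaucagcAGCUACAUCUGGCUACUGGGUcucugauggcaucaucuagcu
Mir221: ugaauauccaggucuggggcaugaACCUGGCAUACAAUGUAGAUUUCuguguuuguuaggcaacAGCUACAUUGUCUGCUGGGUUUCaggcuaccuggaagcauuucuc
Mir222 lies at chrX:6022621-6022723 and Mir221 at chrX:6023182-6023290 on the plus strand of GRCr8, with 458 bases between the hairpins. In the annotation, the uncharacterized long noncoding RNA genes LOC120099382 and LOC120099384 overlap the interval of the pair.

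Both 3p strands were measured on every array, and neither 5p strand was measured on any. Each miRNA had 16 spots per array, made of 2 probes with 8 spots each. For miR-221-3p and for miR-222-3p, 128 of 128 spots stood well above background and 0 were saturated. For miR-221-5p and for miR-222-5p, 0 of 128 spots did so, the detection call was negative on 8 of 8 arrays, and the background-subtracted spot intensities ran from -5.19 to 14.8 for miR-221-5p and from -4.02 to 8.13 for miR-222-5p. The highest of these, on an array of the UVD 4 h group, stood alone among its 8 replicate spots. The 5p strands were therefore below the detection limit in UVD and SO tissue alike, no fold change is given for them, and 2 of the 4 members entered the tests.

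**Figure D1:**
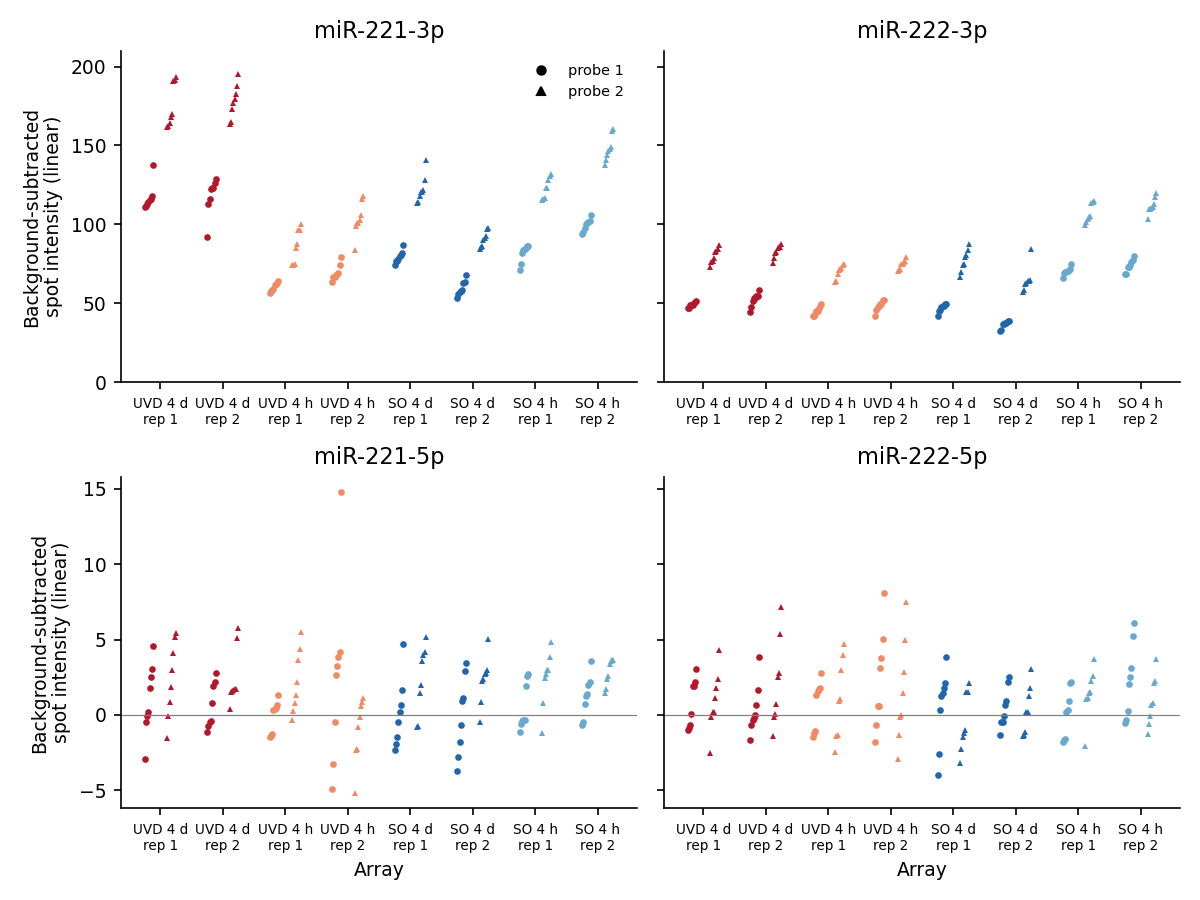
Background-subtracted spot intensity (linear scale) of the 4 mature miRNAs on the 8 arrays, with each point 1 spot and the 2 probes of a miRNA drawn as circles and triangles. Every 3p spot lies at 32.2 or above and the UVD 4 d arrays hold the brightest miR-221-3p spots, whereas the 5p spots scatter around 0 on all arrays.

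miR-221-3p was brightest on the UVD 4 d arrays. Its quantile-normalized intensity was 133 and 164 on the UVD 4 d arrays, 87.4 and 101 on the UVD 4 h arrays, 109 and 93.3 on the SO 4 d arrays, and 107 and 115 on the SO 4 h arrays. Quantile normalization gives all arrays the same distribution of intensities. Both UVD 4 d values exceeded the 6 others, a pattern shared by 28 of the 422 miRNAs tested (6.64%). The group means were 148 ± 22.2 in UVD 4 d, 94.2 ± 9.73 in UVD 4 h, 101 ± 11.3 in SO 4 d and 111 ± 5.55 in SO 4 h (SD, n = 2 each). In the order UVD 4 d, SO 4 h, SO 4 d and UVD 4 h, only the step below UVD 4 d separated neighbouring groups without overlap of their arrays. An intensity in dissected tissue cannot tell more cells that express a miRNA from more miRNA per cell.

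miR-222-3p had a different order, with its highest values on the SO 4 h arrays. Its normalized intensity was 59.5 and 70.0 on the UVD 4 d arrays, 69.5 and 75.8 on the UVD 4 h arrays, 68.4 and 59.0 on the SO 4 d arrays, and 95.7 and 86.2 on the SO 4 h arrays. The means were 64.8 ± 7.39 in UVD 4 d, 72.7 ± 4.42 in UVD 4 h, 63.7 ± 6.62 in SO 4 d and 90.9 ± 6.77 in SO 4 h (SD, n = 2 each). SO 4 h stood above the next group, UVD 4 h, with no overlap, as for 120 of the 422 miRNAs tested (28.4%). UVD 4 d and UVD 4 h overlapped, as did UVD 4 d and SO 4 d.

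**Figure D2:**
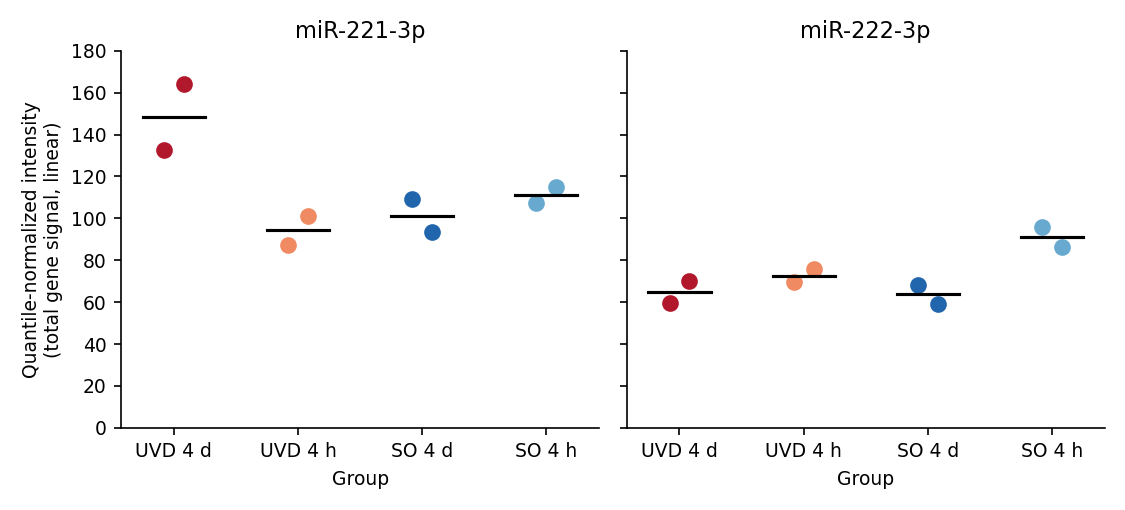
Quantile-normalized intensity (linear scale) of miR-221-3p and miR-222-3p in the 4 groups, with points for the 2 arrays and a line at their mean. miR-221-3p averages 148 in UVD 4 d and between 94.2 and 111 in the other groups, and miR-222-3p averages 90.9 in SO 4 h and between 63.7 and 72.7 in the other groups.

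The signals before normalization had the same leading groups. miR-221-3p had a total signal of 158 and 162 in UVD 4 d, 79.7 and 90.9 in UVD 4 h, 107 and 82.0 in SO 4 d, and 111 and 133 in SO 4 h. miR-222-3p had 71.0 and 75.0 in UVD 4 d, 62.4 and 66.1 in UVD 4 h, 67.4 and 55.2 in SO 4 d, and 95.8 and 99.4 in SO 4 h. The UVD groups of miR-222-3p changed places between the scales, with UVD 4 d above UVD 4 h before normalization. The scanner software put the error of a single signal at 7.27% to 7.65% for miR-221-3p and at 7.41% to 8.03% for miR-222-3p, while the SD between the arrays of a group was 4.99% to 15.0% of the mean for miR-221-3p and 6.09% to 11.4% for miR-222-3p.

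The 2 probes of each 3p strand ran in parallel across arrays. The log2 ratio of probe 1 to probe 2 had an SD over the 8 arrays of 0.037 for miR-221-3p, whose log2 total signal had an SD of 0.40. For miR-222-3p these SDs were 0.068 and 0.29. Within a probe, the 8 spots of an array varied with a median coefficient of variation of 5.79% to 7.03%. The differences between arrays were thus carried by both probes of each miRNA.

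Whether the deafferented MVN changed between the time points was tested with limma, which fits all 422 detected miRNAs with a shared estimate of the spread, with p-values adjusted by Benjamini-Hochberg over all of them. miR-221-3p was 1.57-fold higher in UVD 4 d than in UVD 4 h, a log2 fold change of 0.65 (SE 0.15, 95% interval 0.28 to 1.02, limma adjusted p = 0.218). miR-222-3p had a log2 fold change of -0.17 (SE 0.12, interval -0.48 to 0.15, limma adjusted p = 0.510), which was -0.053 without UVD 4 d replicate 1, -0.29 without UVD 4 d replicate 2, -0.11 without UVD 4 h replicate 2 and 0.18 with no normalization. Thus 0 of the 2 members passed an adjusted p of 0.05, as did 0 of all 422 miRNAs (0.00%), while 65 (15.4%) were under 0.05 before adjustment, and the methods' t-test called 0 once adjusted. The arrays did not overlap for miR-221-3p, which was true in this direction of 80 miRNAs (19.0%), and did overlap for miR-222-3p. In either direction 187 miRNAs had no overlap (44.3%). By fold change 45 miRNAs had a larger difference than miR-221-3p. The study took miR-221-3p as a candidate from these same arrays, so its rank is not independent evidence.

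After sham operation miR-222-3p had the larger difference of the 2 members between the time points. miR-222-3p was lower in SO 4 d than in SO 4 h, with a log2 fold change of -0.52 (SE 0.12, interval -0.83 to -0.20, 0.700-fold, limma adjusted p = 0.148), and miR-221-3p had one of -0.14 (SE 0.15, interval -0.51 to 0.24, limma adjusted p = 0.617). Neither passed the threshold, against 7 of the 422 miRNAs (1.66%). The SO 4 d and SO 4 h arrays did not overlap for miR-222-3p, as for 121 miRNAs in this direction (28.7%) and 229 in either (54.3%). Over the alternatives other than leaving out 1 array, 0 to 21 miRNAs were called in this comparison, against 7 here. In 2 other processings, which differ from this one in more than 1 step, miR-222-3p did pass. With the authors' normalized values its log2 fold change was -0.35 (limma adjusted p = 0.0442), and with normexp background correction of the median spot signal it was -0.34 (limma adjusted p = 0.0186). The cause was not tested. The miR-221-3p value was -0.024 without SO 4 d replicate 2, -0.088 without SO 4 h replicate 2, -0.26 without SO 4 d replicate 1 and -0.38 with no normalization.

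Deafferentation was then set against sham operation at each time point. At 4 d, miR-221-3p was 1.46-fold higher in UVD than in SO, a log2 fold change of 0.55 (SE 0.15, interval 0.18 to 0.92, limma adjusted p = 0.701), and miR-222-3p had 0.02 (SE 0.12, interval -0.29 to 0.34, limma adjusted p = 0.981). At this time 0 of the 2 members and 0 of the 422 miRNAs passed (0.00%), 16 (3.79%) were under 0.05 before adjustment, and the methods' t-test again called 0. The UVD and SO arrays did not overlap for miR-221-3p, as for 51 miRNAs with UVD higher (12.1%) and 124 in either direction (29.4%). For miR-222-3p they overlapped, and the sign of its difference turned without UVD replicate 2 (-0.095) or without SO replicate 2 (-0.081).

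At 4 h both members had lower values in UVD than in SO on each array. The log2 fold change was -0.24 for miR-221-3p (SE 0.15, interval -0.61 to 0.13, limma adjusted p = 0.464), -0.14 without UVD 4 h replicate 1 and -0.51 with no normalization. It was -0.32 for miR-222-3p (SE 0.12, interval -0.64 to -0.0083, limma adjusted p = 0.280). Neither passed, against 2 of the 422 miRNAs (0.474%), and 120 miRNAs had this absence of overlap with UVD lower (28.4%). In either direction it was 215 miRNAs (50.9%). UVD values of miR-221-3p thus lay below the SO values at 4 h and above them at 4 d without overlap, which held for 8 of the 422 miRNAs (1.90%). Absence of overlap at both time points in opposite directions, this one or the reverse, held for 22 miRNAs (5.21%). The difference between the time changes in UVD and in SO was 0.79 for miR-221-3p on the log2 scale (SE 0.21, interval 0.26 to 1.31, limma adjusted p = 0.447) and 0.35 for miR-222-3p (SE 0.18, interval -0.10 to 0.79, limma adjusted p = 0.545), and 1 of the 422 miRNAs passed (0.237%).

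Averaged over UVD and SO, miR-222-3p was 0.789-fold at 4 d relative to 4 h, a log2 fold change of -0.34 (SE 0.088, interval -0.56 to -0.12, limma adjusted p = 0.0901), and miR-221-3p had 0.26 (SE 0.10, interval -0.0060 to 0.52, limma adjusted p = 0.183). Here 0 of the 2 members and 7 of the 422 miRNAs passed (1.66%). Averaged over both time points, the difference of UVD from SO was 0.15 for miR-221-3p (limma adjusted p = 0.497), with a range of 0.082 to 0.22 when 1 array was left out. It was -0.15 for miR-222-3p (limma adjusted p = 0.461), with a range of -0.22 to -0.094. In this comparison 0 of the 422 miRNAs passed (0.00%), 55 (13.0%) were under 0.05 before adjustment, and no other tool was run. The median of all 422 fold changes lay between -0.024 and 0.015 in the 7 comparisons.

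**Figure D3:**
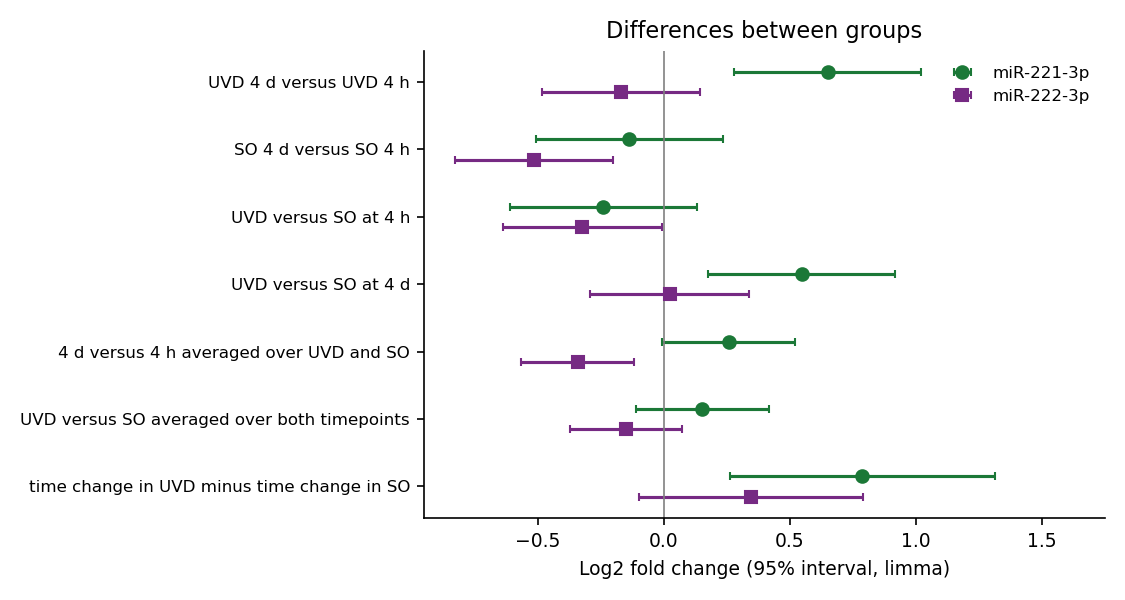
Log2 fold change with its 95% interval from limma (horizontal axis) for miR-221-3p (circles) and miR-222-3p (squares) in the 7 comparisons, UVD over SO and 4 d over 4 h. The miR-221-3p values for UVD 4 d lie at 0.65 and 0.55, the miR-222-3p value for SO 4 d lies at -0.52, and 0 of the 14 points passed after adjustment.

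Since both strands come from neighbouring hairpins, their ratio was taken within each array, where a scaling factor common to the array cancels. Quantile normalization is not such a common factor, so the ratio of normalized intensities still depends on it. The size of the ratio has no meaning of its own, as the probes differ in brightness, but its change between arrays can be compared. The 3p strands share their first 8 bases, and probe sequences were not used here, so binding of either strand to the probes of the other was not tested. The ratio of miR-221-3p to miR-222-3p was 2.23 and 2.35 on the UVD 4 d arrays, 1.26 and 1.33 on the UVD 4 h arrays, 1.60 and 1.58 on the SO 4 d arrays, and 1.12 and 1.34 on the SO 4 h arrays. It was higher at 4 d than at 4 h without overlap in UVD and in SO, and UVD 4 d stood above the other 6 arrays. Before normalization the same held, with 2.22 and 2.16 in UVD 4 d and 1.28 and 1.38 in UVD 4 h. In SO these ratios were 1.59 and 1.49 at 4 d and 1.16 and 1.34 at 4 h. The mean log2 ratio was then 1.13 in UVD 4 d and 0.41 in UVD 4 h, against 1.19 and 0.37 after normalization.

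In UVD the ratio was 1.77-fold higher at 4 d than at 4 h, a log2 difference of 0.82, and in SO it was 1.30-fold higher, a difference of 0.38. Each of these comparisons of 2 arrays with 2 gave an exact permutation p of 0.333 (two-sided), the smallest possible. With labels permuted within UVD and within SO, the time difference was 0.60 (1.51-fold), with an exact permutation p of 0.0556 (two-sided), the smallest that 36 arrangements allow, and 0.333 after adjustment over the 6 comparisons of the ratio. At 4 d the ratio was 1.44-fold higher in UVD than in SO (log2 difference 0.52, exact permutation p = 0.333). At 4 h the log2 difference was 0.08 (exact permutation p = 1), and it turned to -0.044 without SO replicate 1.

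Each of the 4 pairings of 1 probe of miR-221-3p with 1 of miR-222-3p gave the same direction, a comparison added after the values were seen. The pairings put the time difference of the log2 ratio at 0.69 to 0.77 in UVD and at 0.22 to 0.41 in SO, and the difference of UVD from SO at 4 d at 0.48 to 0.54. Every alternative other than leaving out 1 array gave a smaller time difference in UVD than 0.82, from 0.44 to 0.77. It was 0.54 with the authors' values, from which background was not subtracted. The lowest, 0.44, came with normexp, a background correction run on the median spot signal with an offset of 50.

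**Figure D4:**
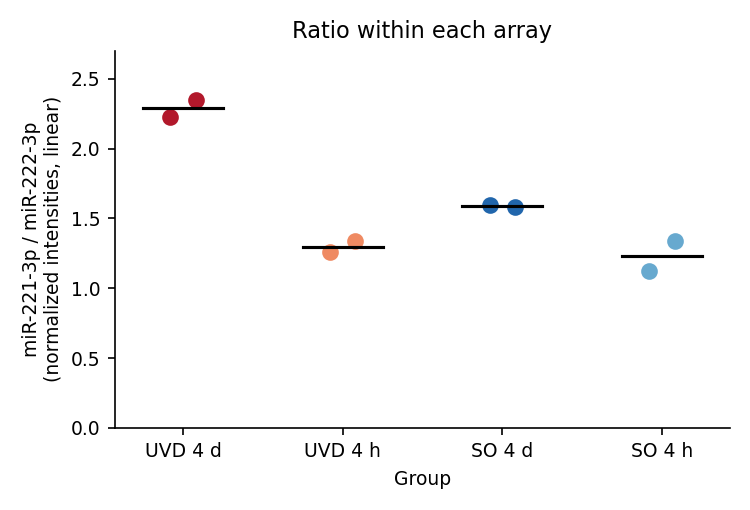
Ratio of the normalized intensities of miR-221-3p and miR-222-3p within each array (linear scale) in the 4 groups, with points for the arrays and a line at their mean. The UVD 4 d arrays lie at 2.23 and 2.35, the SO 4 d arrays at 1.60 and 1.58, and the 4 h arrays between 1.12 and 1.34.

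The miRNAs whose values ran most like each strand were different ones. Likeness was measured as Pearson's r of the log2 values over the 8 arrays, among miRNAs detected on all of them, and is a description, since the arrays share their groups and 1 slide. With miR-221-3p, r was highest for miR-18a-5p (0.86), of the miR-17-92 cluster, let-7f-5p (0.84), miR-511-3p (0.81), let-7b-5p (0.78) and miR-7a-1-3p (0.78). miR-18a-5p had 56.0 and 101 on the UVD 4 d arrays and 38.6 to 51.6 on the others, so that its lead rested largely on UVD 4 d replicate 2. miR-7a-1-3p had 83.6 and 80.5 on the UVD 4 d arrays and 70.0 to 75.8 on the others.

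With miR-222-3p, r was highest for miR-379-5p (0.95), miR-380-5p (0.95), miR-298-5p (0.93), miR-296-5p (0.93) and miR-137-3p (0.93). miR-379 and miR-380 belong to one large imprinted miRNA cluster, and miR-137 is abundant in neurons. All 5 were highest on the SO 4 h arrays, as was miR-222-3p itself, so this pattern follows from how they were chosen. miR-137-3p, for example, had 473 and 534 in UVD 4 d, 604 and 614 in UVD 4 h, 614 and 524 in SO 4 d, and 1030 and 1046 in SO 4 h. Between miR-221-3p and miR-222-3p themselves, r was -0.04, and miR-222-3p came 167th of the 376 miRNAs compared with miR-221-3p.

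Lists of miRNAs tied to processes in which the cluster is known were described beside it, with the members left out, and 0 of their miRNAs passed an adjusted p of 0.05 in the comparisons below. Of the proliferation-linked clusters (miR-17-92 and miR-106b-25), 9 of 9 miRNAs had higher values in UVD 4 d than in UVD 4 h, against 197 of all 422. Their median log2 fold change was 0.26 against -0.0099 over all 422, from 0.10 for miR-25-3p to 0.88 for miR-18a-5p. As members of shared clusters, the 9 are not independent of each other. The same 9 had higher values in SO 4 d than in SO 4 h (median 0.21), against 212 of all 422. Between UVD and SO at 4 d their median was 0.14, against -0.024 over all 422, of which 177 had higher values in UVD.

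Of 7 microglia and leukocyte miRNAs, 6 had higher values in UVD 4 d than in UVD 4 h (median 0.30), from -0.16 for miR-342-3p to 0.75 for miR-142-3p, which is made in blood-derived and microglial cells. Their median was 0.33 for SO 4 d against SO 4 h and 0.03 for UVD against SO at 4 d, where 5 of 7 had higher values in UVD, from -0.12 for miR-342-3p to 1.17 for miR-223-3p. Of 6 injury-induced miRNAs, 2 had higher values in UVD 4 d than in UVD 4 h (median -0.08), from -0.43 for miR-132-3p, an activity-induced miRNA of neurons, to 0.37 for miR-210-3p, a hypoxia-induced one. At 4 d, 4 of 6 had higher values in UVD than in SO (median 0.10, against -0.024 over all 422).

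The vessel list gives the markers of the cells best known for the cluster. Of its 5 miRNAs 4 were tested, miR-145-3p being detected on no array, and 1 had a higher value in UVD 4 d than in UVD 4 h (median -0.10), from -0.18 for miR-126a-5p, an endothelial miRNA, to 0.03 for miR-143-3p of smooth muscle. At 4 d, 4 of 4 had lower values in UVD than in SO (median -0.11), against 238 of all 422.

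**Figure D5:**
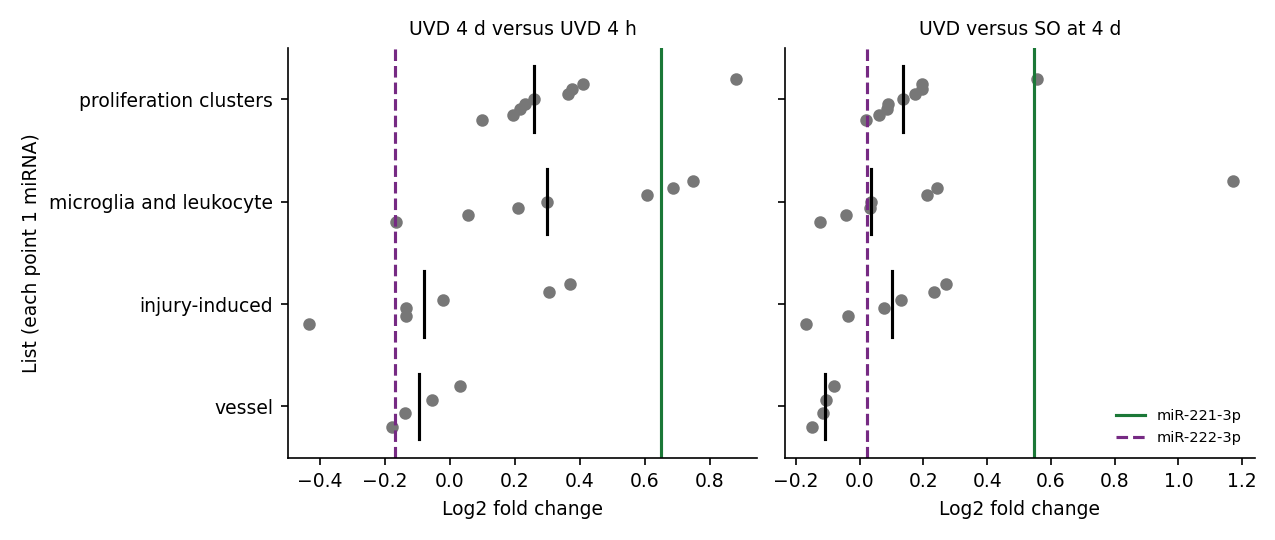
Log2 fold change (horizontal axis) of each tested miRNA of 4 lists, with a black bar at the list's median, for UVD 4 d over UVD 4 h (left) and UVD over SO at 4 d (right), and the values of miR-221-3p (solid line) and miR-222-3p (dashed line). In the left panel miR-221-3p at 0.65 is passed by miR-18a-5p, miR-142-3p and miR-223-3p, and the vessel list has a median of -0.10.

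Markers of the cells that a dissected MVN can hold were present. All 4 neuronal and all 3 oligodendrocyte markers were detected on every array, and the summed intensity of the neuronal ones was 48558 to 51567 in UVD 4 d, 43497 to 45113 in UVD 4 h, 44136 to 48128 in SO 4 d and 43506 to 47271 in SO 4 h. Both UVD 4 d sums were above the other 6, but this did not hold for each marker. The neuronal miR-137-3p had 473 and 534 in UVD 4 d, against 1030 and 1046 in SO 4 h. The UVD 4 d sums were also highest for the 5 choroid plexus and ependyma markers, 4 of them detected on all arrays. Their sum was 7324 to 9031 in UVD 4 d, 5888 to 6024 in UVD 4 h, 6087 to 6409 in SO 4 d and 5172 to 5353 in SO 4 h. The log2 fold change of UVD over SO at 4 d was 0.54 for miR-204-5p, 0.46 for miR-211-5p and 0.59 for miR-449a-5p (limma adjusted p = 0.617, 0.745 and 0.867). It was -0.02 for miR-34b-5p and 0.08 for miR-34c-5p (limma adjusted p = 0.971 and 0.815). The oligodendrocyte sum was 45282 to 53601 in UVD 4 d, 53601 to 54284 in UVD 4 h, 55182 to 59613 in SO 4 d and 54661 to 56808 in SO 4 h. The 7 microglia and leukocyte markers summed to 5364 to 5710 in UVD 4 d, 5159 to 5201 in UVD 4 h, 5402 to 5420 in SO 4 d and 4809 to 4923 in SO 4 h. The 3 hindbrain and motor neuron markers summed to 3214 to 3227 in UVD 4 d, 4154 to 4841 in UVD 4 h, 3207 to 3688 in SO 4 d and 4005 to 4666 in SO 4 h, and were thus lower at 4 d than at 4 h in UVD and in SO. The 4 muscle markers summed to 1771 to 2356 in UVD 4 d, 2127 to 2145 in UVD 4 h, 2022 to 2380 in SO 4 d and 1599 to 2001 in SO 4 h. The 3 erythrocyte markers summed to 869 to 1277 in UVD 4 d, 739 to 939 in UVD 4 h, 1012 to 1054 in SO 4 d and 928 to 949.9 in SO 4 h. The UVD 4 d sums of these 3 lists overlapped the SO 4 d sums. The vessel markers, with miR-145-3p detected on no array, summed to 7567 to 7615 in UVD 4 d, 7587 to 7891 in UVD 4 h, 8209 to 8421 in SO 4 d and 7920 to 8065 in SO 4 h, so that every UVD sum lay below every SO sum. The part of these cells in the values of the cluster was not tested. All arrays were on 1 slide, with the UVD arrays in row 2 and the SO arrays in row 1 and each time point in its own columns, so that slide position and group cannot be told apart.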

How the data were processed

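Agilent rat miRNA arrays of 1 colour (Cy3) were scanned by the authors and read with Feature Extraction 10.7.3.1. The deposited scanner files give the intensity of each spot and the total gene signal, a background-subtracted intensity per miRNA over all its spots, as deposited not normalized between arrays. The authors' own table holds linear intensities, quantile-normalized in GeneSpring GX, with background not subtracted, and served as an alternative.

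The total gene signals were quantile-normalized as in the methods, set to 1 where lower, and taken to log2. A miRNA entered if some group had it detected on its 2 arrays (422 of 758). Models with 4 group means were fitted in limma 3.58.1 (R 4.3.3), p-values were adjusted by Benjamini-Hochberg, and those under 0.05 were called. The script was tested on simulated data. Between 378 and 430 miRNAs were detected per array, and 2 arrays per group limit the precision. Ratios were compared with exact permutation tests (SciPy 1.17.1). Alternatives were other scalings, background corrections, filters, floors and variance models, the methods' test, the replicate number as a block, and each array left out. Sequences came from RefSeq (GRCr8), matched by name. Named miRNAs were the members, miRNAs sharing a seed, the 5 most alike by Pearson's r, and the extremes of each list. The members and lists were chosen with earlier results of these data known.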

Additional observations from a re-analysis of the deposited data

Results flagged for a closer look

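The difference of UVD from SO in miR-221-3p had opposite signs at the 2 time points, and it passed the threshold at neither. UVD minus SO was 0.55 at 4 d and -0.24 at 4 h on the log2 scale, both without overlap of the arrays, and the difference between them was 0.79 (limma adjusted p = 0.447 for the interaction, with a range of 0.215 to 0.773 over its 18 alternatives). It kept its direction in all 18, with values from 0.57 to 1.29, and passed the threshold in 0 of them. The difference at 4 h ran from -0.34 to -0.14 with 1 array left out. Absence of overlap was shared by 51 miRNAs with UVD higher at 4 d (12.1%) and by 120 with UVD lower at 4 h (28.4%). The operation and the slide row cannot be told apart.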

How the results depend on the processing

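miR-221-3p kept its direction and passed the threshold in 0 alternatives in each of the 7 comparisons. Its log2 fold change over the alternatives was 0.40 (normexp) to 0.91 (no normalization) for UVD 4 d against UVD 4 h, with adjusted p of 0.0813 to 0.395 in limma and 0.435 in the methods' t-test, and 0.37 to 0.77 for UVD against SO at 4 d, with limma adjusted p of 0.198 to 1. For miR-222-3p, UVD 4 d against UVD 4 h turned to 0.18 with no normalization, and UVD against SO at 4 d ran from -0.095 to 0.14 with 1 array left out. Its difference between SO 4 d and SO 4 h passed with the authors' values (-0.35, adjusted p = 0.0442) and with normexp (-0.34, adjusted p = 0.0186), and its time difference averaged over UVD and SO passed with normexp (-0.19, adjusted p = 0.0262). The cause was not tested. The ratio of miR-221-3p to miR-222-3p for UVD against SO at 4 h ran from -0.044 to 0.21 with 1 array left out.

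Counts of miRNAs called varied widely with the settings, from 0 to 11 for UVD 4 d against UVD 4 h (0 as reported, 11 without UVD 4 h replicate 1), 0 to 21 for SO 4 d against SO 4 h (7 as reported), 0 to 10 for UVD against SO at 4 h (2), 0 to 2 at 4 d (0), 0 to 67 for time averaged over UVD and SO (7), 0 to 7 for UVD against SO averaged over time (0) and 0 to 7 for the interaction (1). The replicate numbers do not pair the samples, as deviations of same-numbered arrays correlated between -0.25 and 0.19. With the replicate number as a block, the log2 fold change of miR-221-3p for UVD 4 d against UVD 4 h was 0.65 with adjusted p = 0.287, and 2 miRNAs were called for SO 4 d against SO 4 h and 0 for time averaged over UVD and SO. Pools of 3 rats and 2 arrays per group limit the precision.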

Other observations

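Pairs of neighbouring miRNAs elsewhere on the array were described in the same way as the cluster, a comparison chosen after its values were seen. Among 408 pairs of miRNAs detected on all arrays whose precursors lie within 10 kb on 1 strand (140 miRNAs, many in several pairs), the 2 members of a pair differed in their log2 fold change of UVD 4 d over UVD 4 h by a median of 0.12, against 0.82 for miR-221-3p and miR-222-3p. Many of the pairs come from the large imprinted cluster of miR-379 and miR-380, so the median leans on that cluster. In 4 pairs the difference was larger, namely miR-133b-3p with miR-206-3p of muscle (1.25), miR-182 with miR-183-3p (1.00), miR-18a-5p with miR-20a-3p (0.87) and miR-183-3p with miR-96-5p (0.85). For SO 4 d over SO 4 h the difference of the cluster was 0.38, and 38 pairs had a larger one. For UVD over SO it was 0.52 at 4 d, with 8 pairs larger, and 0.08 at 4 h, with 263 pairs larger.

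The X chromosome, which carries the cluster, has 47 other tested miRNAs, a few of which are also made from precursors on other chromosomes. Of these 34 had higher values in UVD 4 d than in UVD 4 h (median log2 fold change 0.09), against 197 of all 422. In UVD against SO at 4 d, 32 had higher values in UVD (median 0.04), against 177 of all 422. The highest value in the first comparison was 2.54, for miR-547-3p, and 0 of the 47 passed an adjusted p of 0.05 in either. miR-547-3p was also higher in SO 4 d than in SO 4 h (1.91). It passed in the time difference averaged over UVD and SO (2.23, limma adjusted p = 0.0409).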
